A study of Homo sapiens with 2 samples.

Results

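The interferon response and antigen presentation genes were followed in HT1080 cells, a human fibrosarcoma line. They are 38 genes listed by name for their known function. No measured value was used to choose them, though earlier results of these data were known. Of the 38, 35 could be measured, among 18417 genes in all. Each was read from an array sequence annotated with a single gene symbol, taking the sequence with the highest mean level where a gene had several. STAT2, GBP1 and HLA-E had no such sequence and were not analysed here.

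The study asked what a coiled-coil fragment of laminin-111 does to tumor cells. That fragment, rLCC111, is a recombinant protein of truncated mouse α1, β1 and γ1 chains produced in a derivative of HEK-293 cells, and cells were kept on it or on bovine serum albumin (BSA) as the control. Both groups were the same line, for which DMEM with 10% fetal calf serum is given as the general culture medium. The medium in the array wells is not stated separately. RNA was taken 24 h after seeding on wells coated with rLCC111 or with BSA. There was 1 Affymetrix Human Gene 1.0 ST array per coating, so no difference has a replicate check, no test was possible, and the coating cannot be told apart from anything else that differed between both wells or arrays. Every value is a log2 expression level, every difference is rLCC111 minus BSA on that scale, and every fold is rLCC111 over BSA.

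Interferons are secreted proteins that warn neighbouring cells of infection. Type I and type III interferons signal through JAK kinases to a complex that holds STAT2 and IRF9 and binds the interferon-stimulated response element (ISRE), whereas interferon-γ acts through the gamma-activated site (GAS). The genes turned on encode proteins that sense, trap or degrade viral RNA and proteins that cut antigens into peptides and load them on HLA class I, and many tumor lines keep part of this program at a basal level.

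Most of these genes have the letters of this element before or just after their start, which is uncommon among promoters in general. The core letters of the ISRE, GAAANNGAAA or TTTCNNTTTC on the other strand, with overlapping matches counted, were found within 250 bases before to 50 bases after the start of 20 of the 29 listed genes with an entry in the RefSeq promoter table (69.0%), against 3.57% of all 35116 promoter windows and 4.38% of 27305 genes. Those without an entry were GBP2, IFITM2, HLA-E, MX2, IRF7, IFIT2, OASL, OAS2 and USP18. The GAS core, TTCNNNGAA, was found in 9 of the 29 (31.0%), against 7.66% of all promoter windows and 9.38% of genes. Windows upstream of the start are printed for the 3 genes with the highest differences among those with a match there, the 3 with the lowest and the 3 nearest 0, because the same letters stand before genes that differed in either direction or hardly at all. Capitals mark each match to the ISRE core, the coordinates are those of GRCh38.p14, and each sequence is given 5′ to 3′ on the strand of its gene. The first trio is the one with the highest differences.
IFITM1 (chr11:313984-314025, plus strand): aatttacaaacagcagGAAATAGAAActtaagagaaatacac
IFIT1 (chr10:89392491-89392545, plus strand): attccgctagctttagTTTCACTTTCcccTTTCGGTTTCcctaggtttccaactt
IFI44L (chr1:78620359-78620400, plus strand): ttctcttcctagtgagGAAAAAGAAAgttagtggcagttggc
The next trio had the lowest differences.
OAS3 (chr12:112938446-112938473, plus strand): tcggagagccgggcggGAAAACGAAAcc
IFIT5 (chr10:89414507-89414567, plus strand): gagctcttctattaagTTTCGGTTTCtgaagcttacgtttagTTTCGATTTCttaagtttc
MX1 (chr21:41431838-41431879, plus strand): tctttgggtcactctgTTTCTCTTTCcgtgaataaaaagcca
The last trio lay nearest 0.
IFI44 (chr1:78649755-78649796, plus strand): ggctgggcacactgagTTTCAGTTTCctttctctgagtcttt
IFITM3 (chr11:320870-320928, minus strand): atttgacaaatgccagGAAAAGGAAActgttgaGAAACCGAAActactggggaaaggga
ISG15 (chr1:1013368-1013415, plus strand): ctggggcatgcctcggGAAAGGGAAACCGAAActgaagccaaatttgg
Among the matches shown, the one nearest its start began 12 bases before it in OAS3 and 196 bases before it in MX1, and matches that run across or after a start, as in IFIT5 and IFITM1, are not shown. A match of letters is a description of the window and not a bound site.

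Small differences in both directions were found, with none reaching 2-fold. Of the 35 genes, 22 were higher on rLCC111, 12 were lower and RIGI was equal, with a median difference of 0.04, quartiles of -0.05 and 0.14 and a range from -0.40 to 0.67. The median of all genes was 0.00, with 46.2% of them above 0 against 62.9% of the 35. The array medians were 7.12 on rLCC111 and 7.04 on BSA. After each array was centred on its median, which shifts every gene alike, 40.0% of the 35 genes and 26.4% of all genes lay above 0, with medians of -0.04 for the 35 genes and -0.08 for all genes, so the sign of the median turned while the 35 genes still lay above the median of all genes. A count of 0 past 2-fold is at the background, since over all genes 0.239% were that much higher and 0.0869% that much lower. A smaller difference of 0.32 on the log2 scale was therefore used as a description. GBP2, IFITM1, OAS2 and IFIT1 were higher by at least 0.32 (11.4% of the 35, against 4.56% of all genes), and IFITM2 and OAS3 were lower by at least 0.32 (5.71%, against 3.68%). These 6 genes stayed past 0.32 under all 4 scalings of the arrays. They were picked as the largest differences and none of the 35 genes moved by more than 0.091, so this says little. Over all genes only the counts past 0.32 were compared, which is another measure: 840 higher and 678 lower as deposited, and 512 higher and 1279 lower after median centring. In RNA from whole wells, fewer cells that express a gene and less RNA per cell cannot be told apart.

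A level limit was set at 6.61, the 95th percentile of mean level among 401 smell, taste and related sensory receptor genes, since a fibrosarcoma line is assumed to make almost none of their mRNA. Of the 35 genes, 26 were above this limit on at least one array and 25 on both. Over all 18417 genes, 12743 were above it on at least one array and 12363 on both, so most genes of the array were above it too. The 9 genes at or below it on both arrays were IFIH1, IFIT1, IFIT2, BST2, OASL, MX2, HERC5, IFI44 and IFI44L. Differences of the sensory receptor genes had an SD of 0.183, and 24 of the 35 differences were smaller than that. This count does not set the 35 genes apart, since the quartiles of all genes, -0.09 and 0.09, also lay within 0.183. The share of all genes within it was not computed. This SD is a rough yardstick, since the highest difference of the sensory receptor genes was 1.53 and their quartiles were only -0.03 and 0.09. Of the 401, 22 were above the limit on at least one array, which largely follows from setting it at their own 95th percentile. Among the 26 genes above the limit the median difference was 0.03, against -0.0010 for all 12743 genes above it, with 3 genes higher and 2 lower by at least 0.32 (11.5% and 7.69%, against 5.55% and 4.54% of all genes above the limit).

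**Figure D1:**
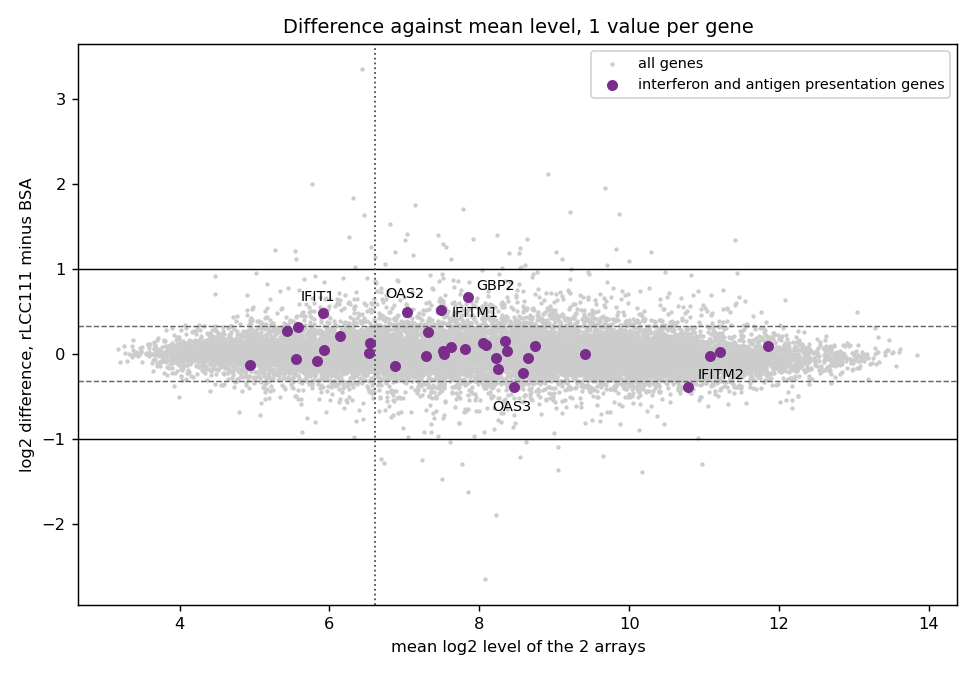
The log2 difference, rLCC111 minus BSA, is plotted against the mean log2 level of both arrays for 18417 genes (grey) and for the 35 interferon and antigen presentation genes (purple). Solid lines mark 2-fold, dashed lines a difference of 0.32 and the dotted line the level limit of 6.61; the purple points lie between -0.40 and 0.67, and the 6 past 0.32 are named.

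**Figure D2:**
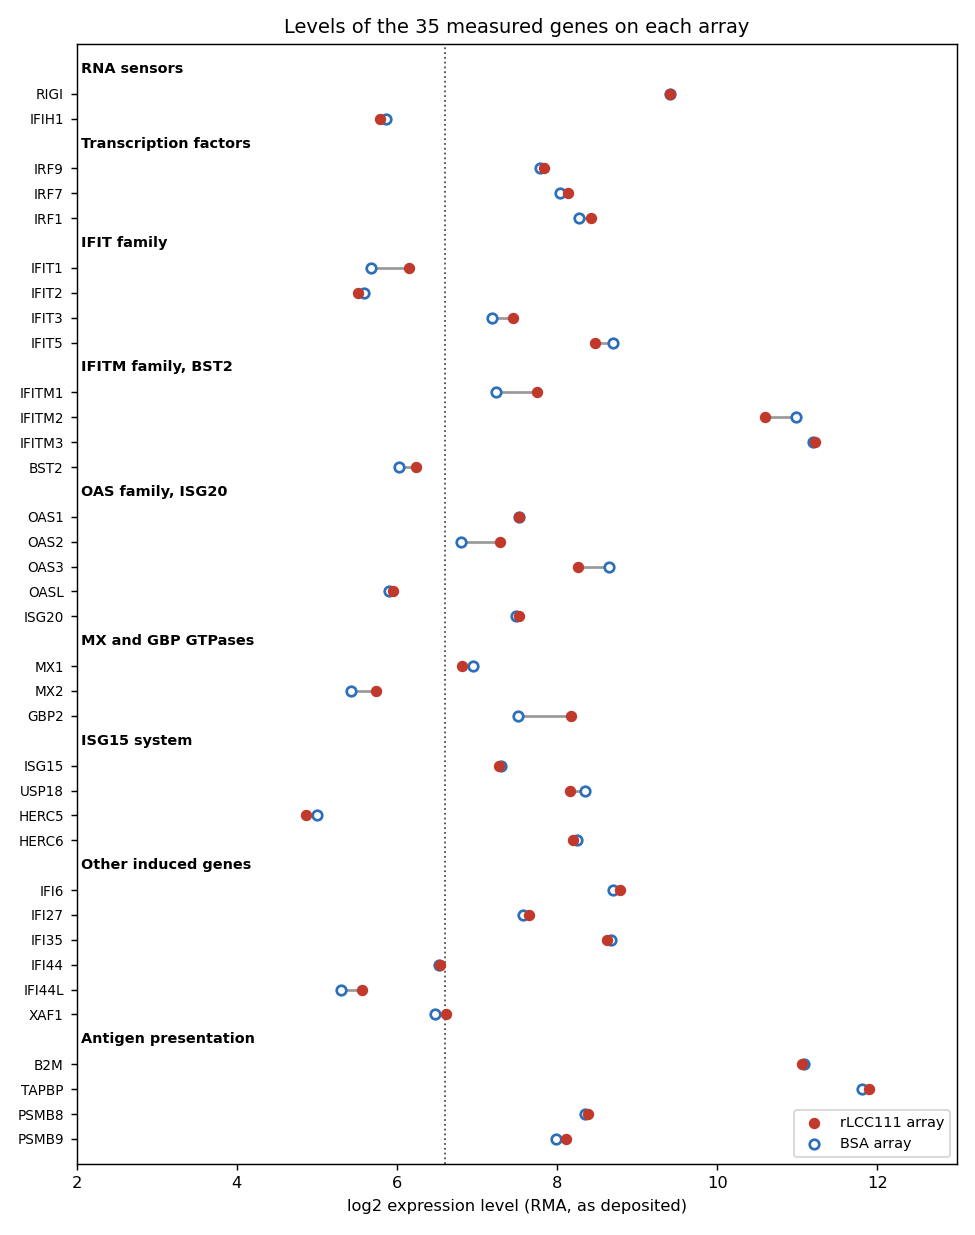
Deposited log2 levels of the 35 measured genes, grouped by role, on the rLCC111 array (filled red) and the BSA array (open blue), joined by a grey line, with the level limit of 6.61 dotted. The longest lines belong to GBP2, IFITM1, OAS2 and IFIT1, higher on rLCC111, and to OAS3 and IFITM2, lower on rLCC111.

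The sensors of viral RNA showed little difference. RIGI, listed under its older symbol DDX58, encodes the helicase that recognises RNA with a 5′ triphosphate, and its level was 9.41 on rLCC111 and 9.41 on BSA. IFIH1 encodes MDA5, which recognises long double-stranded RNA, and was dim at 5.79 on rLCC111 and 5.87 on BSA (difference -0.08).

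The transcription factors of the pathway were all slightly higher on rLCC111 as deposited, by less than the spread of the sensory receptor genes, with IRF9 on the other side of 0 after median centring or quantile normalization. IRF9, the DNA-binding partner of STAT2, was at 7.84 on rLCC111 and 7.79 on BSA (difference 0.05). IRF7, which amplifies transcription of type I interferon genes, was at 8.14 on rLCC111 and 8.04 on BSA (0.10). IRF1, itself induced by interferon-γ and an activator of antigen presentation genes, was at 8.42 on rLCC111 and 8.27 on BSA (0.15). After median centring IRF9 was at -0.03, whereas IRF7 and IRF1 stayed above 0 under all 4 scalings.

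The IFIT genes, which encode proteins that bind viral RNA and hinder its translation, differed among themselves. IFIT1, whose protein recognises RNA that lacks methylation of the cap, was at 6.15 on rLCC111 and 5.67 on BSA, a 1.39-fold difference between levels that were both below the limit. IFIT3, a partner that stabilises IFIT1, was above the limit at 7.45 on rLCC111 and 7.19 on BSA (1.19-fold). IFIT5, another RNA-binding member, went the other way at 8.47 on rLCC111 and 8.70 on BSA (0.855-fold), and IFIT2, which forms complexes with IFIT1 and IFIT3, was dim at 5.52 on rLCC111 and 5.58 on BSA (difference -0.07).

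The IFITM proteins sit in cell and endosomal membranes and restrict the entry of enveloped viruses, and their 3 genes gave 3 different pictures. IFITM1, found mostly at the cell surface, was at 7.75 on rLCC111 and 7.23 on BSA (1.43-fold). IFITM2, found in late endosomes, was at 10.60 on rLCC111 and 10.98 on BSA (0.764-fold). IFITM3, the endosomal member best known for blocking influenza virus, was nearly equal at 11.22 on rLCC111 and 11.20 on BSA (difference 0.02). IFITM1 and IFITM2 differed by 0.90 in their log2 differences although they are direct neighbours on chromosome 11. Genes this alike in sequence can share array probes, which was not tested. BST2, which encodes tetherin, a protein that holds budding virus at the cell surface, was dim at 6.24 on rLCC111 and 6.03 on BSA (1.16-fold).

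The OAS genes were also split. Their enzymes make 2′-5′ oligoadenylate in response to double-stranded RNA, which activates RNase L. OAS2 was at 7.28 on rLCC111 and 6.80 on BSA (1.40-fold). OAS3, the largest enzyme of the family, was at 8.26 on rLCC111 and 8.65 on BSA (0.760-fold). OAS1 was at 7.53 on rLCC111 and 7.52 on BSA, a difference of 0.00, and in the 3 adjacent genes of chromosome 12 the differences of OAS2 and OAS3 lay 0.88 apart, with OAS1 between them. OASL, a relative without the enzyme activity, was dim at 5.95 on rLCC111 and 5.91 on BSA (0.04), and ISG20, an exonuclease that degrades RNA, was at 7.52 on rLCC111 and 7.49 on BSA (0.03).

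**Figure D3:**
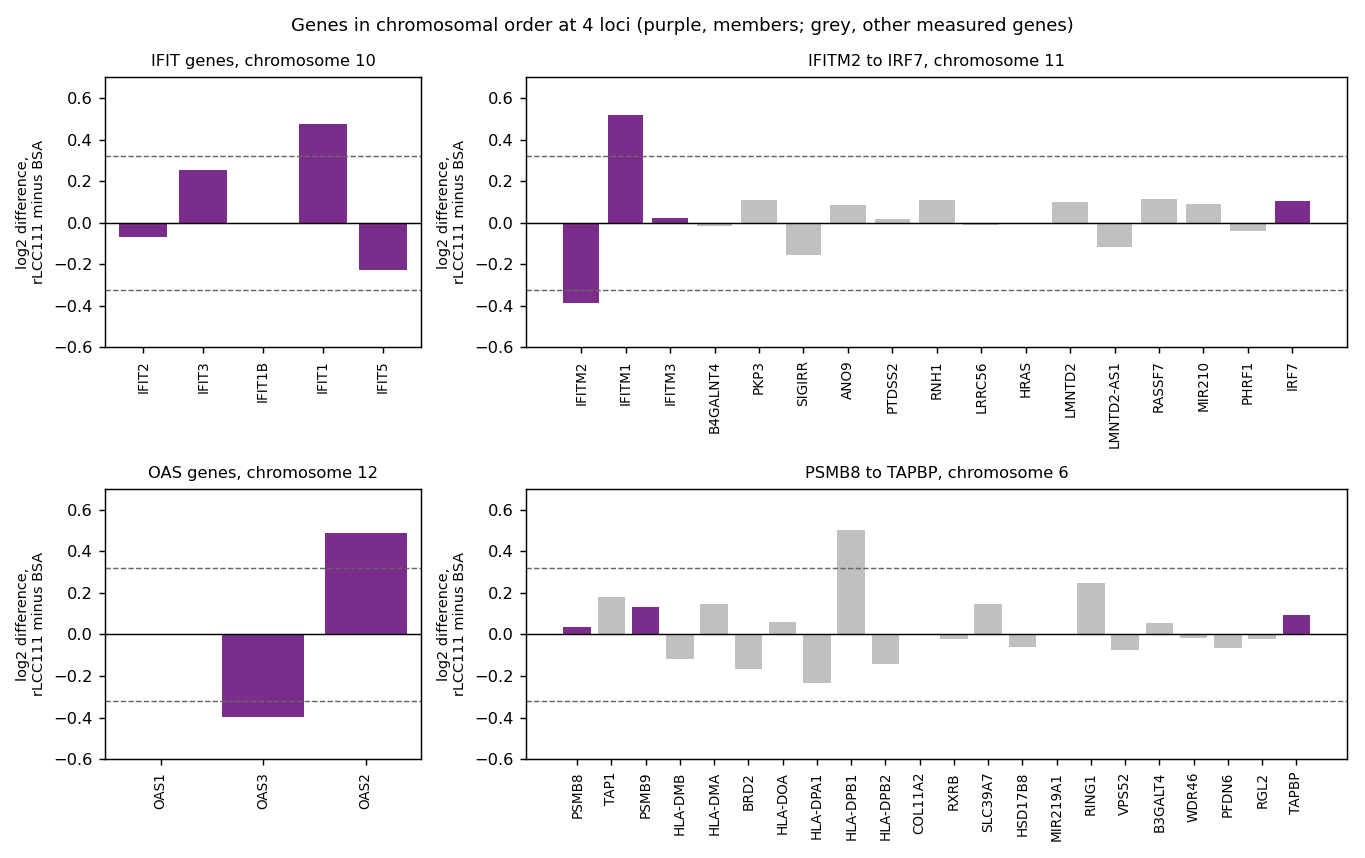
Log2 differences, rLCC111 minus BSA, of measured genes in chromosomal order at 4 loci, with listed genes in purple, other genes in grey and differences of 0.32 dashed. IFIT1 (0.47, below the level limit on both arrays) and IFIT5 (-0.23), IFITM1 (0.52) and IFITM2 (-0.39), and OAS2 (0.49) and OAS3 (-0.40) point in opposite directions, whereas PSMB8, PSMB9 and TAPBP, as deposited, lie between 0.04 and 0.13.

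The largest difference of the 35 genes was that of GBP2, a guanylate-binding GTPase that is induced most strongly by interferon-γ and acts on vacuoles that hold intracellular bacteria and parasites. Its level was 8.18 on rLCC111 and 7.51 on BSA (1.59-fold), the 133rd highest of 18417 differences. A dimmer sequence of GBP2 gave 7.57 on rLCC111 and 6.89 on BSA (1.60-fold), so both sequences of the gene differed to a like extent. GBP3, a relative outside the 38 genes, was at 7.78 on rLCC111 and 8.11 on BSA (0.798-fold), which leaves a gap of 0.99 to GBP2. The MX proteins are dynamin-like GTPases that block influenza and other viruses (MX1) or retroviruses (MX2). MX2 fell just short of the smaller difference used above and was dim, at 5.74 on rLCC111 and 5.43 on BSA (1.24-fold), while its neighbour MX1 was at 6.81 on rLCC111 and 6.95 on BSA (0.903-fold).

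All 4 listed genes of the ISG15 system were lower on rLCC111, where 46.6% of all genes were lower, and each difference was smaller than 0.183. ISG15 is a ubiquitin-like protein that is joined to other proteins or secreted, and its level was 7.28 on rLCC111 and 7.30 on BSA (difference -0.02). USP18, the protease that removes ISG15 and also restrains signalling of the type I receptor, was at 8.16 on rLCC111 and 8.34 on BSA (-0.18). HERC5, the ligase that attaches ISG15 in human cells, was dim at 4.87 on rLCC111 and 5.0 on BSA (-0.13). HERC6, a relative of HERC5 that does this in mouse, was at 8.20 on rLCC111 and 8.25 on BSA (-0.05). UBA7, the enzyme that activates ISG15 and no member of the 38 genes, lay in the opposite direction at 8.90 on rLCC111 and 8.37 on BSA (1.45-fold). UBE2L6, another gene of this system outside the 38, was also higher, at 9.21 on rLCC111 and 8.91 on BSA (1.22-fold). The shared direction therefore holds for the 4 listed genes and not for the system as a whole.

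The remaining induced genes all differed by less than 0.183, apart from IFI44L. IFI6, a small membrane protein with anti-apoptotic activity, was at 8.79 on rLCC111 and 8.70 on BSA (difference 0.09). IFI27, of the same protein family, was at 7.65 on rLCC111 and 7.58 on BSA (0.07). IFI35, a partner of NMI, was at 8.62 on rLCC111 and 8.68 on BSA (-0.05). XAF1, a pro-apoptotic antagonist of the caspase inhibitor XIAP, was at 6.61 on rLCC111 and 6.48 on BSA (0.13), which put it above the limit on the rLCC111 array alone. The adjacent genes IFI44L and IFI44, both classical targets of type I interferon, were dim: IFI44L was at 5.57 on rLCC111 and 5.30 on BSA (0.26), and IFI44 was at 6.53 on rLCC111 and 6.52 on BSA (0.01).

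Genes of antigen presentation kept within 0.13 of equality. B2M, the invariant light chain of every HLA class I molecule, was at 11.06 on rLCC111 and 11.09 on BSA (difference -0.02). TAPBP encodes tapasin, which holds class I molecules at the peptide transporter, and was at 11.90 on rLCC111 and 11.80 on BSA (0.10), with its 3 sequences between 0.08 and 0.10. PSMB8 and PSMB9 encode catalytic subunits that interferon-γ brings into the immunoproteasome. PSMB8 was at 8.39 on rLCC111 and 8.35 on BSA (0.04), and PSMB9 was at 8.12 on rLCC111 and 7.99 on BSA (0.13). The subunits they replace were near equality too: PSMB5 was at 11.55 on rLCC111 and 11.65 on BSA (-0.11), and PSMB6 was at 12.23 on rLCC111 and 12.17 on BSA (0.06). The 3 sequences of PSMB8 carried identical values, as did those of PSMB9, so they add no separate reading.

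Genes with and without an ISRE core in the promoter window were set side by side. Among measured genes, the 19 with a match had a median difference of 0.03 and a range from -0.40 to 0.52, with 12 above 0 and 7 below. The 8 with a promoter entry and no match also had a median of 0.03, with a range from -0.05 to 0.15. For the GAS core, the median was 0.05 over 9 genes with a match and 0.02 over 18 without. Measured genes without a promoter entry are in none of these groups, among them GBP2 (0.67), OAS2 (0.49) and IFITM2 (-0.39). These medians describe few genes and were not tested.

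Outside the 38 genes, 113 of 129 other genes of the pathway could be measured, on lists for interferons, receptors and signalling, nucleic acid sensing, other induced genes, class I and class II presentation, and constitutive proteasome subunits. Of these, 8 were higher and 5 lower by at least 0.32 (7.08% and 4.42%, against 4.56% and 3.68% of all genes), with a median of 0.00. None was past 2-fold. Under all 4 scalings 4 of the 8 and 4 of the 5 stayed past 0.32.

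The interferon genes themselves gave no difference of 0.32. Of 16 measured, 13 were below the limit on both arrays. IFNL1 was at 6.71 on rLCC111 and 6.71 on BSA. IFNL2 was at 7.17 on rLCC111 and 7.31 on BSA (-0.14), and IFNL3 at 8.42 on rLCC111 and 8.31 on BSA (0.10); these genes are near-identical copies, and whether their array sequences share probes was not tested. Among 12 receptor and signalling genes, SOCS3, a feedback inhibitor of cytokine receptors that signal through JAK kinases, was at 7.74 on rLCC111 and 8.28 on BSA (0.684-fold). The next differences in size were those of IFNGR1, the ligand-binding chain of the interferon-γ receptor, at 8.59 on rLCC111 and 8.83 on BSA (0.845-fold), and of the kinase JAK1, at 11.36 on rLCC111 and 11.12 on BSA (1.18-fold).

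Among 15 sensing genes, TRIM25, a ubiquitin ligase that works with RIG-I, was at 10.95 on rLCC111 and 11.28 on BSA (0.793-fold), a difference that shrank to -0.29 once the trend with level was removed. TICAM1, the adaptor of TLR3, followed at 9.16 on rLCC111 and 9.32 on BSA (difference -0.15). Of 44 other induced genes, 7 were higher and 3 lower by at least 0.32 (15.9% and 6.82%, against 4.56% and 3.68% of all genes), with a median of 0.01. RNF213, a very large ubiquitin ligase, was at 9.99 on rLCC111 and 9.34 on BSA (1.58-fold), and its second sequence gave 1.48-fold. DDX60L, a helicase relative, was 1.29-fold higher, SHFL, an inhibitor of ribosomal frameshifting, 1.28-fold, SAMD9L, a restriction factor of poxviruses, 1.27-fold, and the RNA helicase MOV10 1.27-fold, and all 4 fell short of 0.32 after median centring. TNFSF10, which encodes the death ligand TRAIL, was dim at 5.77 on rLCC111 and 5.34 on BSA (1.35-fold) and is named after its values were seen, to complete the count. On the lower side, CD274, which encodes the checkpoint ligand PD-L1, was at 8.96 on rLCC111 and 9.47 on BSA (0.700-fold), and SAMHD1, an enzyme that depletes nucleotides needed by retroviruses, was at 8.67 on rLCC111 and 9.09 on BSA (difference -0.41).

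None of 16 other class I genes passed 0.32. The peptide transporter subunit TAP1, which lies between PSMB8 and PSMB9, was at 9.32 on rLCC111 and 9.14 on BSA (1.13-fold), and PSME3, a proteasome activator, was at 12.15 on rLCC111 and 12.33 on BSA (0.884-fold). In class II, with 7 genes measured, HLA-DPB1, the β chain of HLA-DP, was at 8.35 on rLCC111 and 7.85 on BSA (1.41-fold), but its 3 sequences disagreed, at -0.28, 0.50 and 0.04. HLA-DPA1, its α chain partner, was at 7.20 on rLCC111 and 7.43 on BSA (0.851-fold).

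**Figure D4:**
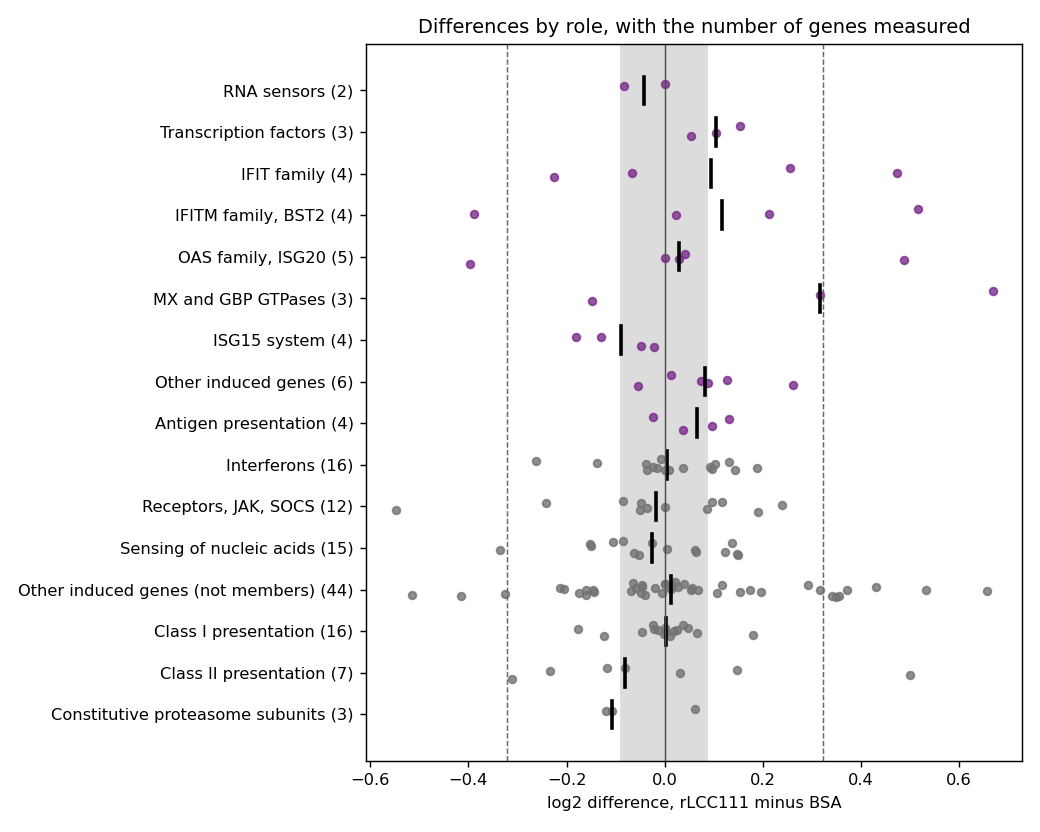
Log2 differences, rLCC111 minus BSA, of listed genes by role (purple) and of other pathway genes (grey), with the number of genes measured in brackets and each group's median as a black bar; the vertical scatter within a row only separates points. The shaded band spans the middle of all genes, from -0.09 to 0.09 (quartiles), and dashed lines mark 0.32. The listed ISG15 system genes all lie below 0, whereas UBA7 and UBE2L6, plotted among the other induced genes in grey, lie above it. Transcription factors all lie above 0 as deposited, IRF9 crossing 0 after median centring or quantile normalization.

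The labelled cell type was checked with marker genes. Of 9 mesenchymal markers 8 were above the level limit, with THY1 below it. Among them VIM was at 12.98 on rLCC111 and 13.05 on BSA (-0.07), and FN1 was the one past 0.32, at 13.29 on rLCC111 and 12.80 on BSA (0.49), while the others differed by -0.18 to 0.25. The leukocyte marker PTPRC was at 4.21 on both arrays, and the epithelial EPCAM, at 5.35 on both, and the endothelial PECAM1, at 5.90 on rLCC111 and 5.80 on BSA, were below the limit. Above the limit were 1 of 6 epithelial, 1 of 6 endothelial, 2 of 7 blood and 2 of 6 neural or HEK-293 markers measured, namely KRT19, CLDN5, CD14, CD79A, NEFL and PAX2. NEFL, a neurofilament gene, was the one of these that differed by over 0.32, at 9.97 on rLCC111 and 10.39 on BSA (-0.42). The mean level of the blood markers was 5.80 on rLCC111 and 5.81 on BSA, and their part in the differences above was not tested. Both arrays correlated with r = 0.994 over 33297 sequences, which are not replicates.

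**Figure D5:**
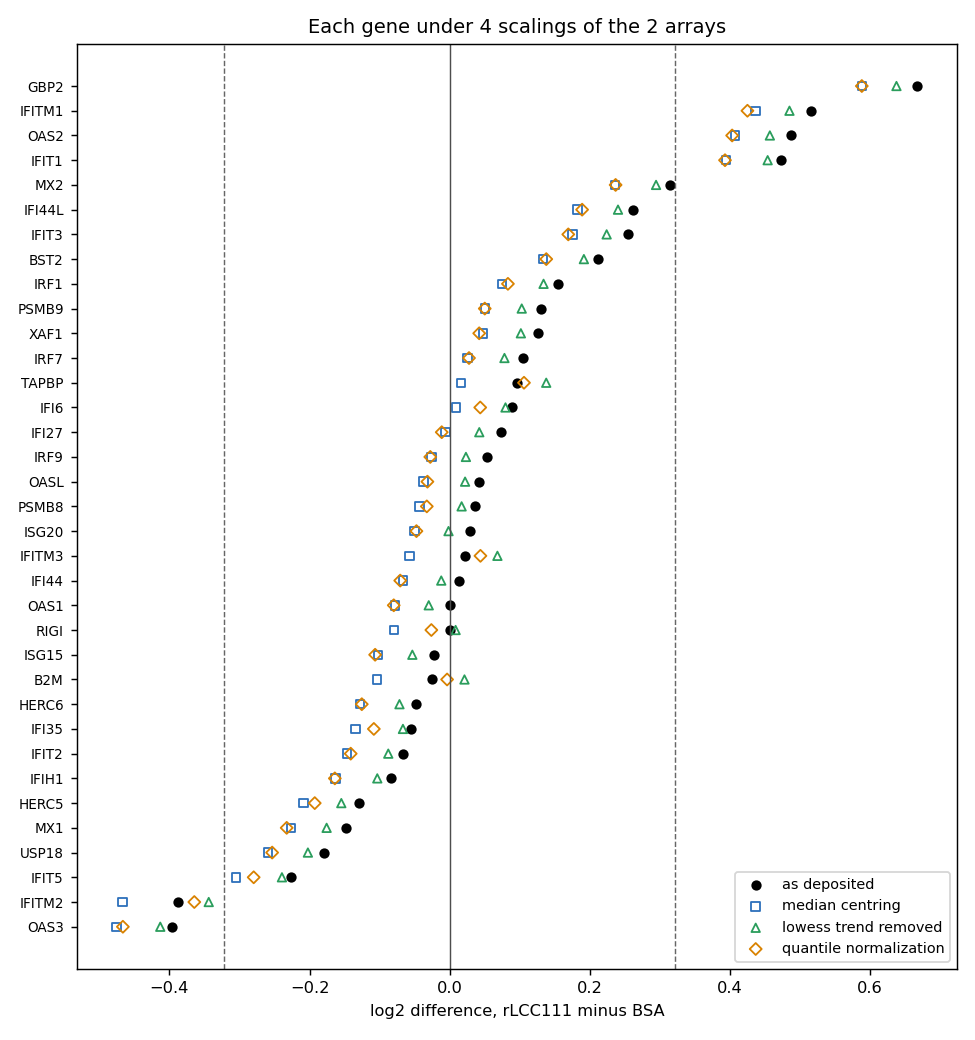
Log2 difference, rLCC111 minus BSA, of each of the 35 genes as deposited (black), after centring each array on its median (blue squares), after a lowess trend with level was removed (green triangles) and after quantile normalization (orange diamonds), with differences of 0.32 dashed. No gene moved by more than 0.091, GBP2, IFITM1, OAS2 and IFIT1 stay beyond the right dashed line and IFITM2 and OAS3 beyond the left one.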

How the data were processed

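The authors scanned 1 GeneChip Human Gene 1.0 ST array per coating and converted the scans to gene expression signals by RMA in Affymetrix Expression Console. The deposited values are log2 levels of 33297 sequences, corrected for background, normalized between arrays and summarised over probes. The RMA settings and the software version are not given in the sources used here. Limma is named in the study's methods and could not be run with 1 array per coating.

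Levels were used as deposited. Sequences were named from the platform annotation, with symbols updated to RefSeq (GRCh38.p14): 19460 had 1 symbol, 1754 had several and 12083 had none. For a gene with several sequences, the sequence of highest mean level was used. No build is stated for the array, so RefSeq served for names, gene order and promoter windows alone. The number of arrays limits the precision of every value.

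The genes, lists, motifs and limits were chosen with earlier results of these data known. Named genes are all 38 genes, each other pathway gene different by at least 0.32 and above the level limit, the 2 largest differences above it in each list, and partners and markers. The alternatives tried were quantile normalization, centring on array medians, a lowess trend with level taken out (span of 0.2 with 3 robustness iterations), filters on level, and other rules for genes with several sequences. The calculations were tested on simulated data and run in Python 3.11.15 (statsmodels 0.14.6 for lowess, pandas 2.3.3 and numpy 2.4.6). Some genes of the pathway are not reported here.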

Additional observations from a re-analysis of the deposited data

How the results depend on the processing

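The sign of the small shift of the 35 genes depended on the scaling. The median difference of 0.04 became -0.043 after median centring (all genes -0.08) and -0.026 after quantile normalization (all genes -0.06). The share of the 35 genes above 0 became 40.0% after median centring (all genes 26.4%) and 42.9% after quantile normalization (all genes 34.1%). With the lowess trend removed the median was 0.02 and the share 60.0%. Over all genes, 840 were higher and 678 lower by at least 0.32 as deposited, against 512 and 1279 after median centring, 643 and 952 after quantile normalization and 808 and 698 with the trend removed. Because the scalings shift or bend all levels together, this follows from their construction.

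Counts past 0.32 were 4 higher and 2 lower under every alternative that kept all 35 genes. With the filters on level, which kept 26 and 25 genes, 3 were higher and 2 lower. No gene was past 2-fold under any of these. Of the 22 genes above 0 as deposited, 14 stayed above it under all 4 scalings, and of the 12 below 0, 11 stayed below it. Median centring lowers every gene alike, and the matching shares over all genes were not computed. The number of the 35 genes above the level limit on at least one array was 29 with the 90th percentile of the sensory receptor genes as limit (6.10) and 19 with the 99th (7.54). The matching counts over all genes were not computed at these limits. Leaving out genes with exactly equal levels, an alternative chosen after seeing the data, gave 64.7% of 34 genes above 0, against 49.8% of all. Leaving out an array was not possible, and no paired analysis was possible because each coating had 1 array. Values of the 9 genes at or below the level limit on both arrays, IFIT1 among them, are limited by signal over background.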

Other observations

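The equal level of RIGI on both arrays belongs to a wider feature of the deposited values. Exactly equal levels were found for 1325 genes (7.19%), for 385 of the 12743 genes above the level limit (3.02%) and for 80 of the 401 sensory receptor genes (20.0%). RIGI was the only one of the 35 genes with such a tie.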
